A study of Mus musculus with 20 samples.

Results

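The genes described here are 32 used as astrocyte genes, measured in hippocampus and amygdala of mice that lack a nuclear receptor corepressor in neurons. Bulk tissue does not show which cells carried their transcripts. The 32 genes were chosen by symbol, as a list of astrocyte genes in 6 roles, from the 23412 symbols of each deposited table, and all 32 were found in both tables. RNA sequencing of total RNA from tissue of postnatal day 21 was done in 20 libraries, 10 per tissue. In each tissue there were 3 NCoR1-KO libraries, from mice in which the nuclear receptor corepressor 1 was deleted, 3 SMRT-KO libraries, from mice in which the corepressor SMRT was deleted, and 4 control libraries. Both deletions were made by crossing floxed mice to a Snap25-IRES2-cre driver, which is active in neurons throughout the brain, so astrocytes were not the targeted cells. The labels give no strain, sex or treatment, do not say which floxed or Cre alleles the controls carried, and do not say that the replicates of a group came from separate animals. The p-values below therefore measure the spread between these libraries, which may be partly technical.

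Astrocytes clear glutamate and GABA that neurons release, buffer potassium and water around synapses and blood vessels, and supply neurons with glutamine, lactate and lipids. They are joined into networks by gap junctions, and their end-feet cover brain capillaries. NCoR1 and SMRT are scaffolds that bring histone deacetylase complexes to nuclear receptors without hormone, thyroid hormone and retinoic acid receptors among them.

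The NCoR1-KO label was checked with Ncor1, which had 32.1, 34.6 and 39.0 TPM in amygdala NCoR1-KO libraries, 114, 118 and 124 TPM in SMRT-KO libraries, and 71.3, 117, 119 and 127 TPM in controls. TPM gives the abundance of a transcript relative to all others in its library, after division by length. In hippocampus Ncor1 had 41.9, 44.5 and 61.1 TPM in NCoR1-KO libraries, 101, 108 and 143 TPM in SMRT-KO libraries, and 81.6, 119, 129 and 137 TPM in controls. Every NCoR1-KO library was below every control, and control 1 was the lowest control in both tissues. Snap25, the gene that carries the Cre driver, had a mean of 1184 TPM over NCoR1-KO, 1125 TPM over SMRT-KO and 2033 TPM over control libraries of amygdala, and of 1292 TPM, 1345 TPM and 2255 TPM over the same groups of hippocampus. The deletions and the driver allele cannot be told apart in comparisons with the controls. Other libraries stood apart in markers of neighbouring tissue. Summed thalamus markers reached 1080 TPM in hippocampus SMRT-KO 2, against 111 to 339 TPM in the other hippocampus libraries. Hippocampus NCoR1-KO 3 held 11603 TPM of choroid plexus and ependymal markers, and hippocampus control 2 had the highest striatum score of its tissue, 1.12 on the log2 scale. Choroid plexus and ependymal markers were not confined to that library. They summed to 51.9 to 3361 TPM in hippocampus controls (median 1987 TPM) and 84.8 to 5832 TPM in hippocampus SMRT-KO libraries.

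All 32 astrocyte genes were above 1 TPM in all 20 libraries, between 9.95 and 3007 TPM, and together took 0.992% to 1.27% of a library's TPM. Since TPM is scaled per length, levels can be set side by side between genes, but only roughly between long and short transcripts. The median deviation of genes with transcripts of more than 9000 bases from the tissue mean still varied between libraries. It ran from -0.36 to 0.22 on the log2 scale in hippocampus and from -0.29 to 0.15 in amygdala. In controls Apoe, the main brain apolipoprotein, was the highest, with 2452.5 ± 172 TPM in hippocampus and 2599 ± 316 TPM in amygdala (SD, n = 4 each, as for the controls below). Glul, glutamine synthetase, and Slc1a2, the main glutamate transporter of forebrain astrocytes, were next. Glul had 1523 ± 139 TPM in hippocampus controls and 1364 ± 103 TPM in amygdala controls. Slc1a2 had 1436 ± 159 TPM in hippocampus controls and 1429.6 ± 100.3 TPM in amygdala controls, so that the order of Glul and Slc1a2 in either tissue was within the SD. Clu, the chaperone clusterin, followed with 1138 ± 93.4 TPM in hippocampus controls and 1156 ± 98.8 TPM in amygdala controls. Entpd2, which hydrolyses extracellular ATP, was the lowest member, at 13.4 ± 0.69 TPM in hippocampus controls and 15.3 ± 2.1 TPM in amygdala controls. The plot of all 32 genes by library shows how they varied around the control means.

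**Figure D1:**
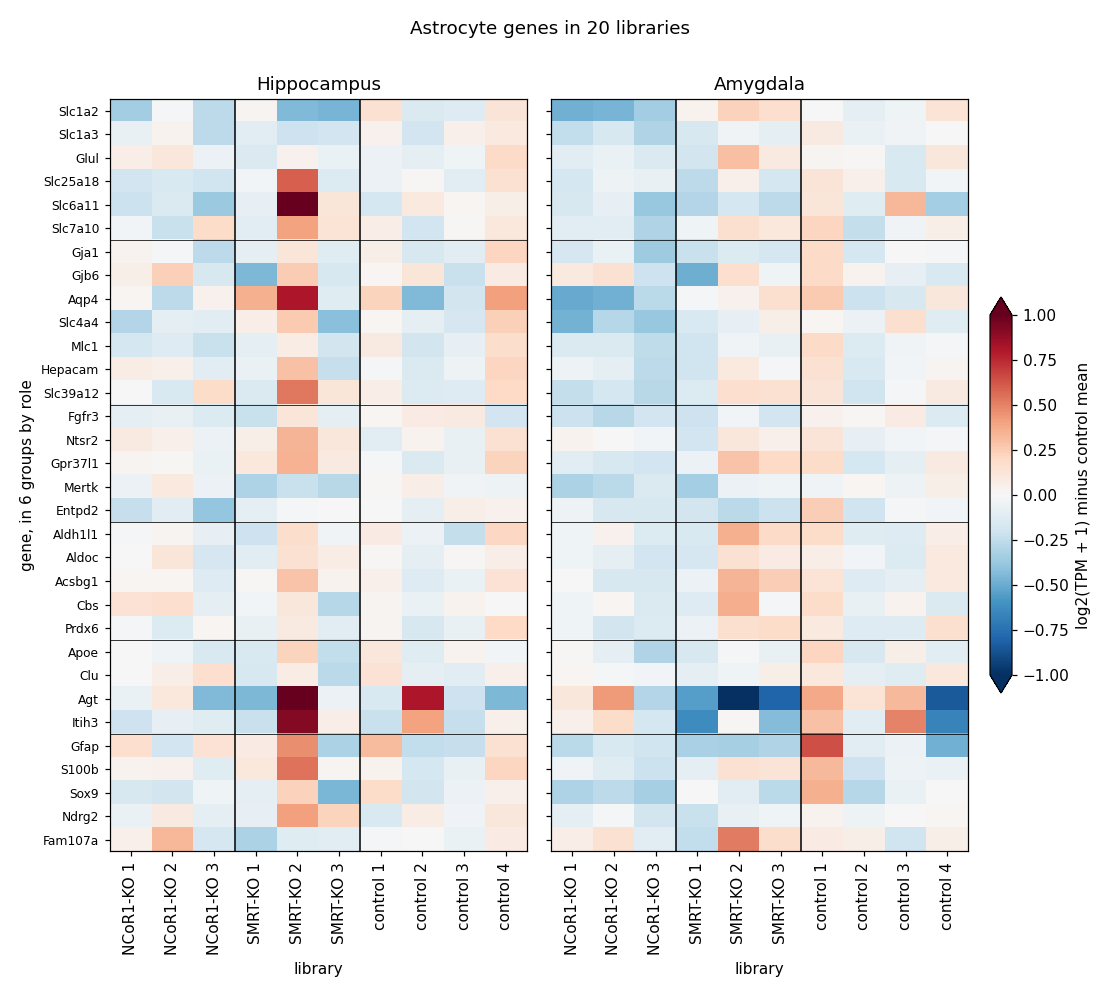
Each cell is log2(TPM + 1) of a gene in a library minus the mean of the 4 controls of the same tissue, for 32 genes in 6 groups by role (rows) and 20 libraries (columns). Hippocampus SMRT-KO 2 was the highest of 10 libraries for 20 of the genes, and the top row shows Slc1a2 low in all 3 amygdala NCoR1-KO libraries. Colours saturate at a difference of 1 in either direction.

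The extreme values gathered in a few libraries. Hippocampus SMRT-KO 2 was the highest of the 10 hippocampus libraries for 20 of the 32 genes, and amygdala control 1 the highest of the 10 amygdala libraries for 16. Amygdala NCoR1-KO 3 was the lowest for 12. Within groups the median SD over the 32 genes was 0.16 in hippocampus and 0.14 in amygdala on the log2 scale, against 0.14 and 0.12 over all tested genes of those tissues. Agt, angiotensinogen, which astrocytes secrete in a regional pattern, varied most, with an SD of 0.66 in hippocampus and 0.46 in amygdala. Mertk, a receptor with which astrocytes engulf debris and synapses, varied least in hippocampus, with an SD of 0.06, and Slc1a3, the other astrocyte glutamate transporter, least in amygdala, with 0.07.

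In amygdala NCoR1-KO libraries Slc1a2 was lower than in controls, and 28 of the 32 astrocyte genes had differences below 0. Slc1a2 was the only member past the threshold of an adjusted p of 0.05 (limma on log2(TPM + 1), Benjamini-Hochberg over 14606 genes): 1 of 32, where 0.411% of all tested genes passed, 0.397% as lower and 0.0137% as higher. The median difference of the 32 genes was -0.13 on the log2 scale, beside -0.03 over all tested genes, of which 58.3% were below 0. At an unadjusted p under 0.05 there were 10 members, where 13.1% of tested genes were. Fewer astrocytes, less RNA per astrocyte and less RNA from other cells that carry these transcripts cannot be told apart in such tissue samples. The comparisons of NCoR1-KO and SMRT-KO with control share the same control libraries.

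Among the genes of glutamate, GABA and amino acid handling, all 6 had differences below 0 in amygdala NCoR1-KO libraries. Slc1a2 had 1023, 1034 and 1119 TPM in NCoR1-KO libraries, 1465, 1600.3 and 1674 TPM in SMRT-KO libraries, and 1330.1, 1388, 1435 and 1566 TPM in controls. The NCoR1-KO values all lay below the 7 others. The log2 difference from control was -0.43 ± 0.07 (SE), a ratio of 0.742, with an adjusted p of 0.0291 by limma. This call ended (adjusted p above 0.05) when any of the NCoR1-KO libraries 1 (0.170), 2 (0.118) or 3 (0.0597), control 1 (0.0948), control 3 (0.0656) or SMRT-KO 3 (0.0670) was left out, with differences between -0.47 and -0.39 over the 10 omissions. It also ended with no filter on low values (limma adjusted p = 0.0733), without a variance trend (0.0598), with the 2 groups alone (0.1002), and with the trend in transcript length removed, which gave -0.20 (0.376). Slc1a3 had 511, 531 and 564 TPM in NCoR1-KO libraries, 563, 593 and 614 TPM in SMRT-KO libraries, and 603, 614, 633 and 671 TPM in controls. Its NCoR1-KO libraries lay below all controls but reached the lowest SMRT-KO library, and the difference from control was -0.24 ± 0.05 (limma adjusted p = 0.106). The ratio of Slc1a2 to Slc1a3 within a library was 1.83, 1.93 and 2.19 in NCoR1-KO, 2.60, 2.70 and 2.73 in SMRT-KO, and 2.14, 2.21, 2.26 and 2.47 in control amygdala. Slc25a18, a mitochondrial glutamate carrier, Slc6a11, a GABA transporter, Slc7a10, which carries small neutral amino acids such as D-serine, and Glul had differences between -0.21 and -0.10, none past the threshold.

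**Figure D2:**
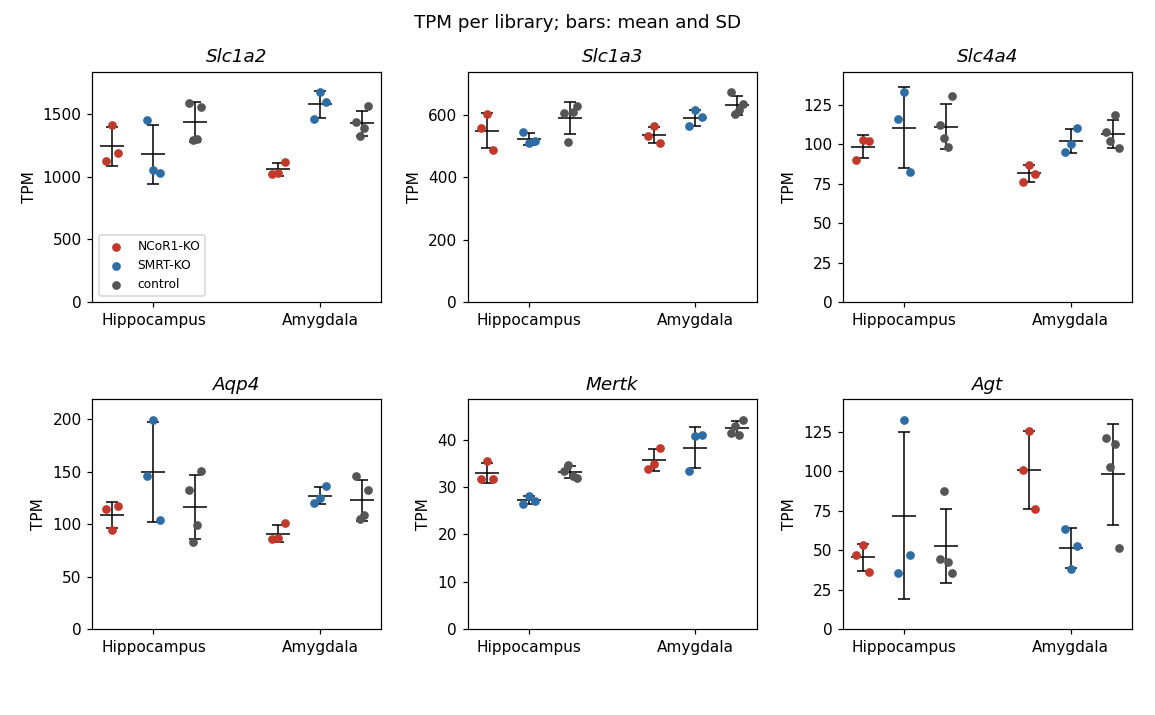
TPM of 6 astrocyte genes in each library (points), with the group mean and SD (bars), for NCoR1-KO, SMRT-KO and control libraries (left to right) of hippocampus and amygdala; axes start at 0. Slc1a2 in amygdala NCoR1-KO libraries reached at most 1119 TPM, below every SMRT-KO and control library of that tissue.

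Of the 7 genes for gap junctions, water, ions and membrane, 6 had differences below 0 in amygdala NCoR1-KO libraries and none passed the test. Slc4a4, which carries sodium with bicarbonate, had 76.4, 81.4 and 87.0 TPM in NCoR1-KO libraries, 95.4, 100.2 and 110.4 TPM in SMRT-KO libraries, and 97.5, 102, 108 and 119 TPM in controls. All 3 NCoR1-KO values were the lowest of the tissue, with a difference from control of -0.38 ± 0.08 (limma adjusted p = 0.0666). Aqp4, the water channel of astrocyte end-feet, had 85.7, 86.9 and 101 TPM in NCoR1-KO libraries, 120.2, 125 and 136 TPM in SMRT-KO libraries, and 105, 109, 132 and 146 TPM in controls. Again no NCoR1-KO library reached a control, and the difference was -0.42 ± 0.11 (limma adjusted p = 0.145). Gja1, the main astrocyte connexin, overlapped between groups, with 218, 248 and 266 TPM in NCoR1-KO libraries, 239, 246 and 254 TPM in SMRT-KO libraries, and 247, 276, 279 and 319 TPM in controls. Mlc1, a membrane protein of astrocyte junctions around vessels, lay at 133, 143 and 143 TPM in NCoR1-KO libraries and 144, 155, 157 and 181 TPM in controls, a narrow gap with a difference of -0.18 ± 0.07 (limma adjusted p = 0.333). Gjb6, the second astrocyte connexin, Hepacam, the adhesion molecule that partners Mlc1, and Slc39a12, a zinc transporter, had log2 differences from control of 0.01, -0.14 and -0.23.

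Receptors and ectoenzymes were below 0 for all 5 members, and 7 of the 32 genes in all (Slc1a2, Slc1a3, Aqp4, Slc4a4, Mlc1, Fgfr3 and Mertk) had every NCoR1-KO library below every control, where 8.43% of tested genes did. None had every NCoR1-KO library above every control, where 3.68% of tested genes did. Fgfr3, a fibroblast growth factor receptor of astrocytes and their progenitors, had 65.3, 68.2 and 69.3 TPM in NCoR1-KO libraries, 68.5, 69.6 and 78.0 TPM in SMRT-KO libraries, and 72.3, 80.0, 82.0 and 83.9 TPM in controls. Mertk had 33.8, 35.0 and 38.3 TPM in NCoR1-KO libraries, 33.3, 40.7 and 41.0 TPM in SMRT-KO libraries, and 41.0, 41.4, 43.0 and 44.2 TPM in controls. Their differences between NCoR1-KO and control were -0.23 ± 0.06 and -0.24 ± 0.08 (limma adjusted p = 0.162 and 0.202). Ntsr2, a neurotensin receptor, lay at 131 ± 2.7 TPM in NCoR1-KO and 131 ± 8.3 TPM in control amygdala (SD, n = 3 and 4), a difference of -0.00073. The metabolic and redox enzymes were also below 0 for all 5, none past the threshold. Aldh1l1, the folate enzyme widely used as an astrocyte marker, had 45.6, 48.8 and 52.0 TPM in NCoR1-KO libraries, 45.2, 57.6 and 64.7 TPM in SMRT-KO libraries, and 45.8, 46.3, 52.7 and 57.3 TPM in controls.

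Secreted proteins split evenly, with 2 of 4 below 0. Apoe had 2095, 2411 and 2605 TPM in amygdala NCoR1-KO libraries, 2318, 2452 and 2570.5 TPM in SMRT-KO libraries, and 2317, 2387, 2687 and 3007 TPM in controls. Clu had 1133, 1141 and 1170.3 TPM in NCoR1-KO libraries, 1081, 1118 and 1199 TPM in SMRT-KO libraries, and 1057, 1084, 1238 and 1243 TPM in controls. Both overlapped across all 3 genotypes. Gfap, the intermediate filament that rises in reactive astrocytes, had 182, 190.4 and 197 TPM in NCoR1-KO libraries, 173, 174 and 178 TPM in SMRT-KO libraries, and 156, 204, 210.3 and 343 TPM in controls. Controls spanned both knockout groups, with or without control 1 at 343 TPM, and the NCoR1-KO difference of -0.21 ± 0.20 did not pass. Sox9, a transcription factor that sets astrocyte identity, had the largest difference of the regulators, -0.30 ± 0.12 (limma adjusted p = 0.348), with 23.5 to 24.7 TPM in NCoR1-KO libraries and 24.3 to 38.4 TPM in controls.

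**Figure D3:**
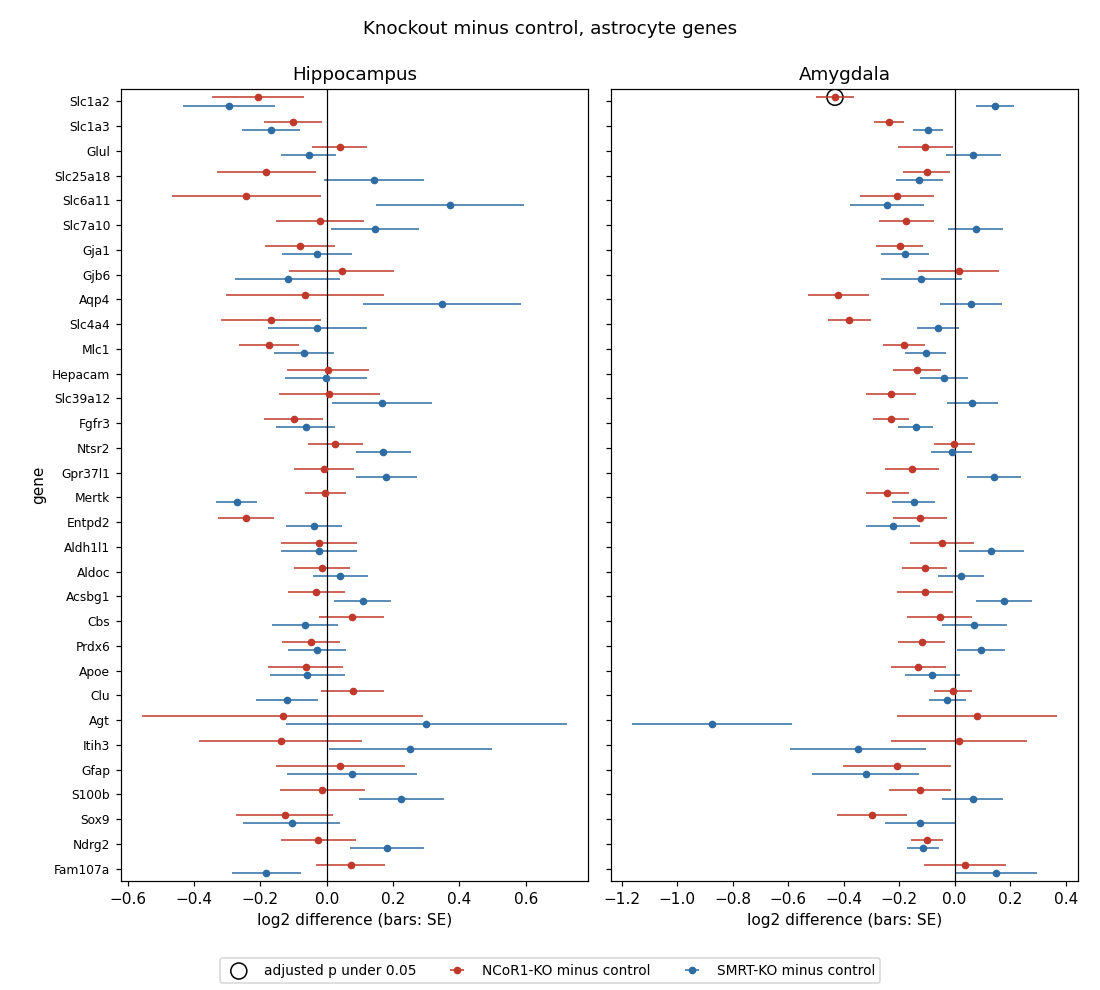
Log2 difference of each knockout from control, with its SE, for the 32 genes (rows) in hippocampus (left) and amygdala (right); NCoR1-KO is drawn above SMRT-KO in each row. The only ringed point, with an adjusted p under 0.05, is Slc1a2 in amygdala NCoR1-KO, at -0.43.

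Genes with long transcripts had a median difference below 0 in amygdala NCoR1-KO libraries. Slc1a2 has the longest coding transcript of the 32 genes, 11595 bases in the GENCODE M21 annotation, followed by Slc4a4 with 7931, Cbs, the first enzyme of transsulfuration, with 6226, and Aqp4 with 5054. Over all tested genes with transcripts of more than 9000 bases (538 genes) the median difference between NCoR1-KO and control amygdala was -0.25, against 0.0049 for the 2068 genes of up to 1500 bases. Genes called lower had a median length of 10256 bases and all tested genes 3157. The deviation of the over-9000-base genes from the tissue mean was -0.29, -0.11 and -0.11 in NCoR1-KO libraries 1 to 3, 0.13, 0.06 and 0.10 in SMRT-KO libraries, and 0.03, 0.06, 0.15 and 0.01 in controls. Once the trend with length was removed from each library, a setting added after the data were seen, the Slc1a2 difference of -0.20 had an SE of 0.09, and the median of the 32 genes was -0.12. The same setting left Slc4a4 at -0.25 ± 0.07 and Aqp4 at -0.37 ± 0.11 (limma adjusted p = 0.194 and 0.231). Cbs had a difference of -0.05.

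**Figure D4:**
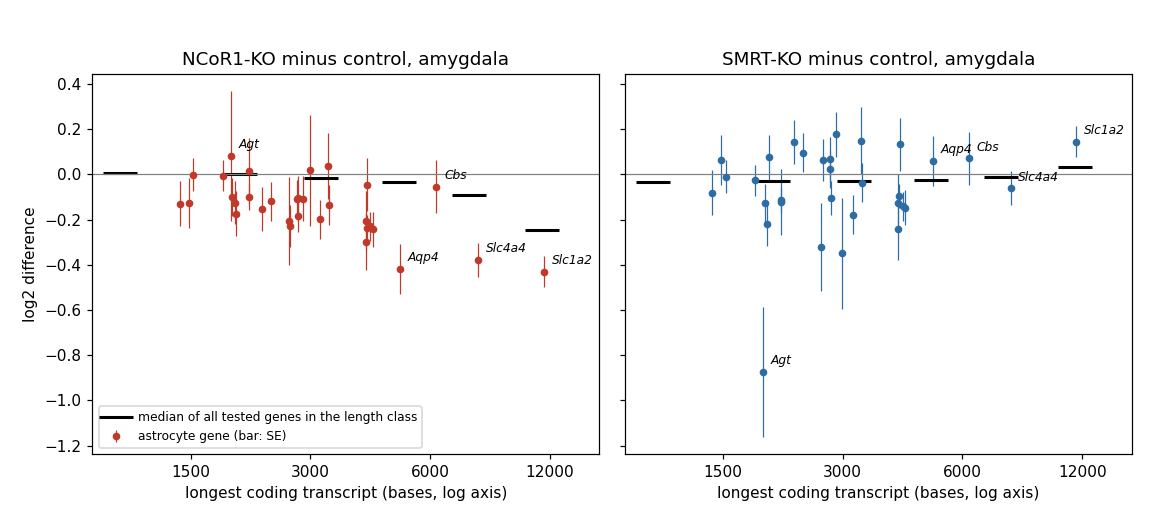
Log2 difference from control in amygdala (bars: SE) against the longest coding transcript of each of the 32 genes on a log axis, for NCoR1-KO (left) and SMRT-KO (right); black dashes are the median of all tested genes in 6 length classes. In NCoR1-KO the dash of the longest class lies at -0.25 and Slc1a2 at -0.43, while in SMRT-KO that dash lies at 0.03 and Slc1a2 at 0.14.

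Microglia, endothelial and oligodendrocyte markers were also below 0 in amygdala NCoR1-KO libraries, with 0 called in these lists and sums that overlapped those of controls. Pan-neuronal markers did not share this by their score, the median log2 deviation from the tissue mean. That score was -0.02 to 0.05 in NCoR1-KO libraries and -0.12 to 0.11 in controls. The pan-neuronal sums, Snap25 included, were 9733 to 10443 TPM in NCoR1-KO libraries (median 10085 TPM). In controls they were 9941 to 11625.5 TPM (median 10669 TPM). Scores of oligodendrocyte precursor markers were -0.25 to -0.05 in NCoR1-KO libraries and -0.21 to 0.25 in controls. All 12 microglia markers had differences below 0 (median -0.29, 0 called, 10 at an unadjusted p under 0.05, where 13.1% of tested genes were), and none was at 0 TPM in any library. Their summed level was 672 to 737 TPM in NCoR1-KO, 890 to 977 TPM in SMRT-KO and 736 to 969 TPM in control libraries. Endothelial markers were below 0 for 10 of 10, with sums of 331 to 391.95 TPM in NCoR1-KO libraries, 391.92 to 475 TPM in SMRT-KO libraries and 338 to 486 TPM in controls. Oligodendrocyte and myelin markers were below 0 for 14 of 14, with sums of 4108 to 5603 TPM in NCoR1-KO, 8395 to 12687 TPM in SMRT-KO and 2815 to 9910.2 TPM in control libraries. The summed TPM of the 32 astrocyte genes was 9920.1 to 10722 in NCoR1-KO, 10479 to 12272 in SMRT-KO and 10896 to 12656 in control amygdala. The part of these markers and of transcript length in the Slc1a2 result was not tested beyond the length setting above.

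Of the 3 members called between genotypes, Slc1a2, Slc4a4 and Aqp4, promoters were found for Slc1a2 and Slc4a4. NCoR1 is brought to DNA by nuclear receptors. It was deleted with a driver active in neurons, astrocytes were not the targeted cells, and its loss by cell type was not measured. Binding of NCoR1 or of a nuclear receptor at these promoters was not tested. Slc1a2 lies on the plus strand of chromosome 2 (chr2:102658659-102790784, GRCm38) and Slc4a4 on the plus strand of chromosome 5 (chr5:88886818-89239653). The 250 bases before each RefSeq transcript start (GRCm38.p6, plus strand, 5′ to 3′) were at chr2:102706188-102706437 for Slc1a2, inside the annotated gene, and at chr5:88887010-88887259 and chr5:89027716-89027965 for the 2 starts of Slc4a4. Capitals mark the hexamer AGGTCA, which nuclear receptors bind singly or in pairs, here read on the other strand as TGACCT, at the second Slc4a4 start.

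Slc1a2: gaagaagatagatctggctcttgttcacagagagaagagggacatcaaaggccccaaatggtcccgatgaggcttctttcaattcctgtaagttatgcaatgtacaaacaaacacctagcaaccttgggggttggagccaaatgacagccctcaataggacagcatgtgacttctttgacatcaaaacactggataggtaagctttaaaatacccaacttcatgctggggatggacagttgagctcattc

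Slc4a4 first start: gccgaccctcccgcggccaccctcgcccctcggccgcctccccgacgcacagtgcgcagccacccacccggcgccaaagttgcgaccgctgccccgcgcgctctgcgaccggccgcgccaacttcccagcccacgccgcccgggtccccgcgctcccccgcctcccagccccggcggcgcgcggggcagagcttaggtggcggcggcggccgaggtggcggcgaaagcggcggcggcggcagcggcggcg

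Slc4a4 second start: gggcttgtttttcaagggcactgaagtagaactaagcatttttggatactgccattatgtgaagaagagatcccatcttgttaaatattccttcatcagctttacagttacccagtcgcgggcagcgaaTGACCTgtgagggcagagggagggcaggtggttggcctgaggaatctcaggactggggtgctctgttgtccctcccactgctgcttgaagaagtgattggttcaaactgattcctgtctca

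Windows from 250 bases before to 50 bases after the start were found for 28 of the 32 genes, 37 windows in all; Aqp4, Prdx6, Clu and Sox9 had none in the table. On both strands AGGTCA was in 18.9% of the members' windows and 16.3% of the 32851 windows of all genes. It was found for 7 members: Slc1a2, where it lay after the start, Slc4a4, Glul, Slc6a11, Aldh1l1, Gfap and Ndrg2. Slc1a3, Mlc1, Fgfr3 and Mertk, which also had every amygdala NCoR1-KO library below every control, had no AGGTCA in their windows. Neither the direct repeat of AGGTCA with 4 bases between (DR4) nor that with 1 base (DR1) was in any member's window, and all windows held them in 0.0152% and 0.0396%. TTGGCA, the core bound by nuclear factor I, was in 16.2% of the members' windows and 14.1% of all. TTCCNGGAA, the form bound by STAT factors, was in 3 members' windows (Aldoc, Agt and Gfap), 8.11%, and in 1.15% of all. AACAATG, a form bound by SOX factors, was in 0 of the members' windows and in 3.78% of all. These shares describe letters in a window only.

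In amygdala SMRT-KO libraries none of the 32 astrocyte genes differed from controls past the threshold (0 of 32 by limma, with 0.11% of tested genes called, 0.0479% as higher and 0.0616% as lower; 3 of 32 at an unadjusted p under 0.05, where 22% of tested genes were). The largest difference was that of Agt, which had 38.2, 52.9 and 63.1 TPM in SMRT-KO libraries and 51.5, 103, 117 and 121 TPM in controls. The 3 SMRT-KO libraries lay below controls 1, 2 and 3 but around control 4, and the difference was -0.87 ± 0.29 (limma adjusted p = 0.121). Differences were above 0 for 13 genes and below 0 for 19, with a median of -0.05 beside -0.03 over all tested genes, and 58% of tested genes were below 0. No member had all SMRT-KO libraries on 1 side of all controls, where 12.2% of tested genes were all lower and 5.85% all higher. The 5 metabolic and redox enzymes were all above 0, by 0.02 to 0.18, and the 4 secreted proteins all below 0. Entpd2 had 12.5, 12.9 and 13.3 TPM in SMRT-KO libraries and 13.1, 14.9, 14.9 and 18.2 TPM in controls, with a difference of -0.22 ± 0.10 (limma adjusted p = 0.21). Fgfr3 differed by -0.14 ± 0.06 (0.227) and Slc1a2 by 0.14 ± 0.07 (0.245), neither past the threshold. Striatum markers summed to 1208 to 1926 TPM in these SMRT-KO libraries, against 462 to 1382 TPM in controls, and 14 of 14 oligodendrocyte markers were above 0 (median 0.88, 0 called, 13 at an unadjusted p under 0.05). Their part in these values was not tested.

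Set directly against SMRT-KO amygdala, NCoR1-KO amygdala had lower Slc1a2, Aqp4 and Slc4a4. These were 3 of 32 members called (9.38%), all lower, where 11.5% of tested genes were called, 6.46% as lower and 5.03% as higher, so that the members' share was near that of all genes. The limma differences were -0.58 ± 0.07 for Slc1a2 (adjusted p = 0.00289), -0.48 ± 0.12 for Aqp4 (0.0306) and -0.32 ± 0.08 for Slc4a4 (0.0338). At an unadjusted p under 0.05 there were 10 members, where 31.1% of tested genes were, and 22 members were below 0, where 50.1% of tested genes were. Slc1a2 averaged 1059 ± 52.6 TPM in NCoR1-KO libraries and 1579.96 ± 106 TPM in SMRT-KO libraries (SD, n = 3 each). Agt was on the other side, with 75.9, 101 and 125 TPM in NCoR1-KO libraries, above all 3 SMRT-KO libraries, and a difference of 0.95 ± 0.31 that missed the threshold (limma adjusted p = 0.0656). In all, 6 members had every NCoR1-KO library below every SMRT-KO library, where 19.6% of tested genes did, and 3 (Agt, Entpd2 and Gfap) had every one above, where 18.8% did. With the length trend removed only Aqp4 stayed past the threshold (-0.45 ± 0.12, limma adjusted p = 0.0370), and Slc1a2 moved to -0.32 ± 0.09 (0.0514). Aqp4 and Slc4a4 ended without NCoR1-KO 1 (limma adjusted p = 0.0833 and 0.0928), NCoR1-KO 2 (0.104 and 0.0642), SMRT-KO 2 (0.0896 and 0.0941) or SMRT-KO 3 (0.108 and 0.124), and Slc4a4 also without NCoR1-KO 3 (0.0763). Microglia markers, with 7 of 12 called lower, and oligodendrocyte markers, with 4 of 14 called lower, moved the same way, and their part was not tested.

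In hippocampus neither knockout changed an astrocyte gene past the threshold. For NCoR1-KO against control limma called 0 of 32 members and 0% of 14501 tested genes, Ncor1 itself included (-1.22 ± 0.20, adjusted p = 0.790). At an unadjusted p under 0.05 there was 1 member, Entpd2, where 4.54% of tested genes were. It had 9.95, 11.3 and 12.3 TPM in NCoR1-KO libraries and 12.4, 13.3, 13.8 and 13.96 TPM in controls, which did not overlap, for a difference of -0.24 ± 0.09 (limma adjusted p = 0.998). Slc25a18 was the other member without overlap, with 37.0, 37.2 and 38.3 TPM in NCoR1-KO libraries and 39.5, 41.0, 43.1 and 47.7 TPM in controls, while 3.91% of all tested genes were lower in this way and 4.18% higher. The annotated span of Entpd2 overlaps that of Npdc1 on the same strand, so reads could have been shared. On the same strand the annotated spans of Slc1a3, Glul, Mertk and Aldh1l1 also overlap those of Gm37310, Mir8114, Gm23172, and Gm44236 with Gm45901. Whether exons overlap, or reads were shared, was not tested for these genes or for Entpd2. Members were above 0 for 9 and below 0 for 23, with a median of -0.03 beside 8.2e-05 over all tested genes, of which 50% were below 0. This split rested on single libraries: without hippocampus control 4 it was 18 above and 14 below 0, and without NCoR1-KO 3 it was 16 and 16.

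The high-abundance members overlapped between NCoR1-KO and control hippocampus. Slc1a2 had 1124, 1191 and 1418 TPM in NCoR1-KO libraries, 1033, 1052 and 1455 TPM in SMRT-KO libraries, and 1293, 1305, 1560 and 1586 TPM in controls. The lower values fell in libraries of both knockouts, and the differences from control were -0.21 ± 0.14 in NCoR1-KO and -0.29 ± 0.14 in SMRT-KO (limma adjusted p = 0.998 and 0.779). In those libraries the over-9000-base genes deviated by -0.19, 0.02 and 0.04 for NCoR1-KO and -0.36, -0.15 and 0.15 for SMRT-KO, in the same order, and their part in the Slc1a2 values was not tested. Slc1a3 had 488, 558 and 602 TPM in NCoR1-KO libraries, 509, 515 and 543 TPM in SMRT-KO libraries, and 513, 604, 609 and 628 TPM in controls. Mlc1 had 139, 143 and 148 TPM in NCoR1-KO libraries and 142, 153, 172 and 183 TPM in controls, with 1 control inside the knockout range. Gfap had 270.1, 339.6 and 347 TPM in NCoR1-KO libraries, 247, 326 and 426 TPM in SMRT-KO libraries, and 260.1, 263, 343 and 384 TPM in controls. Gja1 had 235, 278 and 289 TPM in NCoR1-KO libraries, 259, 265 and 307 TPM in SMRT-KO libraries, and 253, 260.5, 293 and 327 TPM in controls. No genotype stood apart in either gene.

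For SMRT-KO against control hippocampus limma called 0 of 32 members and 0% of tested genes, and 1 member was at an unadjusted p under 0.05, where 5.61% of tested genes were. That member was Mertk, with 26.5, 27.1 and 28.2 TPM in SMRT-KO libraries, 31.8, 31.8 and 35.5 TPM in NCoR1-KO libraries, and 31.9, 32.3, 33.4 and 34.7 TPM in controls. All 3 SMRT-KO libraries lay below the 7 others, with a difference from control of -0.27 ± 0.06 (limma adjusted p = 0.779). Fam107a, an actin-binding protein, was the other member below all controls, with 313, 357 and 359.7 TPM in SMRT-KO libraries and 371, 383, 389 and 412 TPM in controls, where 2.71% of tested genes were, and 2.07% were above. Ntsr2 had 157, 163 and 191 TPM in SMRT-KO libraries and 139, 143, 154 and 167 TPM in controls, and Gpr37l1, an orphan receptor, had 178, 180.1 and 213 TPM in SMRT-KO libraries and 152, 159, 166 and 196 TPM in controls. Their differences of 0.17 ± 0.08 and 0.18 ± 0.09 did not pass, and the highest value of each was in SMRT-KO 2. Members were above 0 for 14 and below 0 for 18, with a median of -0.03 beside -0.02 over all tested genes, of which 56% were below 0.

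The library SMRT-KO 2 set the upper end of many of these ranges. Agt had 35.8, 47.3 and 132.6 TPM in hippocampus SMRT-KO libraries, 36.0, 47.1 and 53.1 TPM in NCoR1-KO libraries, and 35.8, 42.6, 44.2 and 87.3 TPM in controls, the 132.6 TPM being that of SMRT-KO 2. Slc6a11 had 102, 117 and 228 TPM in SMRT-KO libraries and 95.1, 109, 112 and 115 TPM in controls. Aqp4 had 104, 146 and 199.7 TPM in SMRT-KO libraries, 94.6, 115 and 117 TPM in NCoR1-KO libraries, and 83.1, 99.7, 133 and 151 TPM in controls. In each case SMRT-KO 2, the library with the highest thalamus markers, was the highest. When it was left out, 8 members were above and 24 below 0, with a median of -0.11. Without SMRT-KO 3 the split was 21 to 11 with a median of 0.06, without SMRT-KO 1 it was 19 to 13 with 0.04, and without control 4 it was 20 to 12 with 0.05. With hippocampus control 2, NCoR1-KO 3 and SMRT-KO 2 left out together, 7 were above and 25 below 0, with a median of -0.14 and 0 called. SMRT-KO 2 was also the highest SMRT-KO library for Apoe, Clu and Aldh1l1. Apoe had 2060.1, 2202 and 2863 TPM in SMRT-KO libraries, 2201, 2376 and 2461 TPM in NCoR1-KO libraries, and 2247, 2399.6, 2511 and 2652 TPM in controls. Clu had 939, 1015 and 1196 TPM in SMRT-KO libraries, 1139, 1186 and 1272 TPM in NCoR1-KO libraries, and 1056, 1067, 1176 and 1252 TPM in controls. Aldh1l1 had 36.8, 41.6 and 48.3 TPM in SMRT-KO libraries, 40.2, 42.4 and 43.4 TPM in NCoR1-KO libraries, and 36.0, 41.0, 45.3 and 49.5 TPM in controls. The apolipoprotein, the chaperone and the folate enzyme thus overlapped across the genotypes. Between NCoR1-KO and SMRT-KO hippocampus limma also called 0 of 32 members (0% of all tested genes), and 4 members, Mertk, Slc6a11, Fam107a and Entpd2, were at an unadjusted p under 0.05, where 6.59% of tested genes were. Of the members 23 were below 0, against 44.3% of tested genes. Slc6a11, Entpd2, Slc25a18 and Gpr37l1 had all NCoR1-KO libraries below all SMRT-KO libraries (5.01% of tested genes), and Mertk had them all above (6.44%).

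Whether a knockout acted differently in the 2 tissues was tested in a joint limma fit of all 20 libraries over 14210 genes. No member passed for NCoR1-KO (0 of 32, 0% of tested genes) or for SMRT-KO (0 of 32, 0%). At an unadjusted p under 0.05 there was 1 member for NCoR1-KO (Mertk, hippocampus minus amygdala 0.24 ± 0.10), where 3.67% of tested genes were, and 4 for SMRT-KO, where 8.85% were. The 4 were Slc1a2 (-0.44 ± 0.16), Ndrg2, a protein enriched in astrocytes (0.30 ± 0.13), Slc6a11 (0.61 ± 0.28) and Agt (1.17 ± 0.55), with limma adjusted p-values from 0.455 to 0.563. For Slc1a2 the NCoR1-KO effect in hippocampus minus that in amygdala was 0.22 ± 0.16 (limma adjusted p = 0.998). The call of Slc1a2 in amygdala and not in hippocampus is therefore not shown to be a difference between the tissues. For NCoR1-KO 5 members were below 0, where 40.9% of tested genes were, and the median was 0.10 beside 0.03 over all tested genes. For SMRT-KO 10 were below 0, where 45.9% of tested genes were. Their median was 0.04 beside 0.02 over all tested genes and -0.06 without hippocampus SMRT-KO 2. It was -0.12 with hippocampus control 2, NCoR1-KO 3 and SMRT-KO 2 left out together.

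Controls of the 2 tissues differed in 5 of the 32 astrocyte genes, 15.6%, where 32.5% of tested genes differed in the same limma fit, 13.2% as higher in hippocampus and 19.3% as lower. Cbs and Fam107a were higher in hippocampus, and Mertk, S100b and Slc25a18 were lower. The tissues came in separate tables, so that tissue and table cannot be told apart. Cbs had 31.8, 33.3, 33.9 and 34.2 TPM in hippocampus controls and 22.3, 23.5, 25.4 and 28.4 TPM in amygdala controls, with a difference of 0.41 ± 0.11 (limma adjusted p = 0.00573). Fam107a had 371, 383, 389 and 412 TPM in hippocampus controls and 255, 306, 306 and 309.9 TPM in amygdala controls, with a difference of 0.41 ± 0.13 (limma adjusted p = 0.0211). Its call ended without hippocampus control 4 (0.0586) or amygdala control 3 (0.0728). Mertk had 31.9 to 34.7 TPM in hippocampus controls and 41.0 to 44.2 TPM in amygdala controls (-0.35 ± 0.06, limma adjusted p = 0.000443). S100b, a calcium-binding protein, had 107, 115, 124 and 141 TPM in hippocampus controls and 147, 161, 163 and 211 TPM in amygdala controls (-0.48 ± 0.12, limma adjusted p = 0.00479). Slc25a18 had 39.5 to 47.7 TPM in hippocampus controls and 52.7 to 64.3 TPM in amygdala controls (-0.45 ± 0.12, limma adjusted p = 0.00745). For these 5 genes the hippocampus and amygdala controls did not overlap. Counting Slc6a11 and Ndrg2, 5 members were all lower in hippocampus, where 19.1% of tested genes were, and 2 were all higher, where 13.6% were. Oligodendrocyte markers summed to 11162 to 20649 TPM in hippocampus controls and 2815 to 9910.2 TPM in amygdala controls, and microglia markers to 624 to 766 TPM in hippocampus controls and 736 to 969 TPM in amygdala controls. Their part in the 5 differences was not tested.

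**Figure D5:**
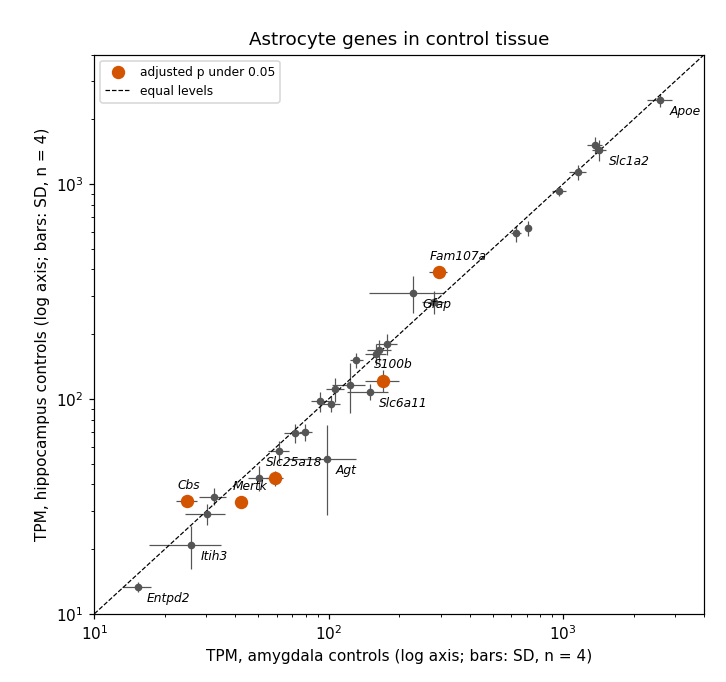
Mean TPM of the 32 genes in 4 hippocampus controls (vertical log axis) against 4 amygdala controls (horizontal log axis), with SD bars; orange marks an adjusted p under 0.05. Most genes lie near the line of equal levels, with Cbs and Fam107a above it and Mertk, S100b and Slc25a18 below it.

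The other members did not pass between the control tissues, and 19 of the 32 had differences below 0, where 56.2% of tested genes had (median -0.06, beside -0.03 over all tested genes). The enzymes Aldoc, Prdx6, Acsbg1 and Aldh1l1, of glycolysis, peroxide removal, fatty acid activation and folate metabolism, had 924 ± 41.0, 181 ± 20.02, 95.1 ± 8.0 and 43.0 ± 5.8 TPM in hippocampus controls. In amygdala controls the same 4 had 964 ± 69.7, 177 ± 18.7, 102 ± 9.7 and 50.5 ± 5.5 TPM, so that the order of these enzymes was the same. Slc1a3 had 589 ± 51.4 TPM in hippocampus controls and 630.3 ± 30 TPM in amygdala controls, with overlapping libraries. Slc6a11 had 108 ± 8.9 TPM in hippocampus controls and 149 ± 30.1 TPM in amygdala controls, without overlap but short of the threshold (limma adjusted p = 0.0710). Slc7a10 had 35.1 ± 3.2 TPM in hippocampus controls and 32.3 ± 4.3 TPM in amygdala controls. The junction and membrane genes Gja1, Mlc1, Aqp4, Slc4a4, Hepacam, Gjb6 and Slc39a12 had 283 ± 33.9, 163 ± 18.3, 117 ± 30.8, 111 ± 14.1, 97.3 ± 10.7, 69.4 ± 7.2 and 57.1 ± 6.7 TPM in hippocampus controls. In amygdala controls they had 280.1 ± 29.5, 159 ± 15.8, 123 ± 19.5, 107 ± 9.1, 92.1 ± 8.0, 72.0 ± 7.7 and 61.3 ± 6.2 TPM, means that lay closer together than the larger SD of each pair. The receptors Gpr37l1, Ntsr2 and Fgfr3 had 168 ± 19.3, 151 ± 12.5 and 70.1 ± 6.1 TPM in hippocampus controls, against 164 ± 19.3, 131 ± 8.3 and 79.5 ± 5.1 TPM in amygdala controls. Agt and Itih3, a protein that binds hyaluronan in plasma and matrix, had 52.5 ± 23.5 and 20.9 ± 4.8 TPM in hippocampus controls, against 98.1 ± 32.03 and 25.9 ± 8.8 TPM in amygdala controls, with wide spreads. Gfap, Ndrg2 and Sox9 had 312 ± 61.2, 623 ± 51.1 and 29.0 ± 3.3 TPM in hippocampus controls, against 229 ± 80.3, 710.4 ± 18.9 and 30.2 ± 5.9 TPM in amygdala controls. Without hippocampus SMRT-KO 1 or 2, which enter only the shared spread, 10 and 11 members passed. The share of all tested genes called in these settings is not given here, so the counts are not read as a result about the members.

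A list of 50 other astrocyte-enriched genes was read in the same fits. In amygdala NCoR1-KO against control 1 of 50 passed (2%, where 0.411% of all tested genes did) and 47 were below 0 (94%, where 58.3% of all tested genes were), with a median of -0.15. It was Ptprz1, a receptor phosphatase of glia and progenitors with a transcript of 8068 bases, with 107, 115 and 127 TPM in NCoR1-KO libraries and 153, 155, 159 and 178 TPM in controls (-0.47 ± 0.07, limma adjusted p = 0.0291). In amygdala SMRT-KO against control 1 of 50 passed, where 0.11% of all tested genes did: Kcnj16, a potassium channel subunit, with 24.6, 25.5 and 25.6 TPM in SMRT-KO libraries and 31.6, 32.8, 35.0 and 36.0 TPM in controls (-0.41 ± 0.06, limma adjusted p = 0.0473). The Ptprz1 call ended without any 1 NCoR1-KO library, control 1, control 3 or SMRT-KO 3 (adjusted p from 0.0590 to 0.143), and the Kcnj16 call without any 1 library except control 3 and SMRT-KO 1 (0.0518 to 0.232). Between NCoR1-KO and SMRT-KO amygdala 3 of 50 passed, where 11.5% of all tested genes did, and all 3 were lower, where 6.46% were: Chrdl1, a secreted BMP antagonist, with 6.87 to 8.74 TPM in NCoR1-KO libraries and 11.5 to 19.7 TPM in SMRT-KO libraries (-0.90 ± 0.18, limma adjusted p = 0.0176), Dio2, the enzyme that activates thyroid hormone (-0.67 ± 0.12, 0.0122), and Ptprz1 (-0.35 ± 0.08, 0.0217). Dio2 had 47.1, 51.5 and 53.3 TPM in NCoR1-KO libraries, 70.1, 78.0 and 97.5 TPM in SMRT-KO libraries, and 55.7, 56.2, 64.0 and 71.6 TPM in controls, the controls lying above NCoR1-KO and reaching into SMRT-KO. The Chrdl1 call ended without NCoR1-KO 1 or 2 or SMRT-KO 2 or 3 (limma adjusted p from 0.0540 to 0.0667), that of Dio2 without NCoR1-KO 2 (0.0508), and that of Ptprz1 without NCoR1-KO 1 or 3 or SMRT-KO 3 (0.0529 to 0.0776). In hippocampus 0 of 50 passed in either knockout. At an unadjusted p under 0.05 there were 5 for NCoR1-KO and 6 for SMRT-KO, where 4.54% and 5.61% of tested genes were.

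Between control tissues 21 of the 50 passed (42%, where 32.5% of all tested genes did), 7 higher and 14 lower in hippocampus, where 13.2% and 19.3% of all tested genes were. The higher ones were led by 3 nuclear factor I genes, which drive gliogenesis, and the urea transporter Slc14a1. Bulk tissue does not show which cells carried these transcripts, here or in the reactive list below, so they are not read as differences between astrocytes. Nfix averaged 183 TPM in hippocampus controls and 70.6 TPM in amygdala controls (1.36 ± 0.14, limma adjusted p = 1.1e-06), Nfia differed by 0.77 ± 0.07, Nfib by 0.75 ± 0.12 and Slc14a1 by 0.65 ± 0.14. Among the lower ones Chrdl1 averaged 3.26 TPM in hippocampus controls and 10.4 TPM in amygdala controls (-1.45 ± 0.19), and Hes5, a Notch target, differed by -1.11 ± 0.22, Kcnj16 by -0.77 ± 0.10 and Cspg5, a proteoglycan, by -0.65 ± 0.05. Of 33 genes known from reactive astrocytes, 28 were tested within the tissues and none passed against control in any knockout. At an unadjusted p under 0.05 there were 3 and 6 in hippocampus NCoR1-KO and SMRT-KO, where 4.54% and 5.61% of tested genes were. In amygdala there were 4 and 3, where 13.1% and 22% of tested genes were. All of these were lower than control except Srgn in hippocampus NCoR1-KO. Cxcl10 and Lcn2 among them were low, at 1.54 and 2.1 TPM in hippocampus controls. Between NCoR1-KO and SMRT-KO amygdala 2 of 28 passed (7.14%, where 11.5% of all tested genes did): S100a10 was higher (90.3 TPM in NCoR1-KO, 70.1 TPM in SMRT-KO, 0.37 ± 0.10, limma adjusted p = 0.0347) and Cd14 lower (2.43 TPM in NCoR1-KO, 4.25 TPM in SMRT-KO, -0.61 ± 0.16, 0.0365). Both calls ended without any 1 of the NCoR1-KO libraries, SMRT-KO 2 or SMRT-KO 3 (limma adjusted p from 0.0595 to 0.128). Against amygdala controls S100a10 differed by -0.03 in NCoR1-KO and -0.40 in SMRT-KO, with a control mean of 92.55 TPM. Cd14 differed by -0.34 and 0.27 in the same order, with a control mean of 3.36 TPM. In hippocampus NCoR1-KO S100a10 differed from control by -0.55 (limma adjusted p = 0.885). Cd14 is also a microglia and macrophage gene. Between control tissues 6 of 27 passed (22.2%, where 32.5% of all tested genes did), with Cd109 (1.99 ± 0.25), Serpina3n (1.74 ± 0.17), Amigo2 (1.22 ± 0.22) and Fkbp5 (0.45 ± 0.11) higher in hippocampus, and S100a10 (-1.06 ± 0.09) and Srgn (-0.70 ± 0.12) lower.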

How the data were processed

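Bulk RNA sequencing of hippocampus and amygdala was read from 1 deposited table per tissue, each with 10 libraries and 23412 gene symbols. The values are TPM, which the authors computed before deposit, and each library sums to 1000000. Per the labels' protocols, RNA was extracted with a kit for fatty tissue and prepared with a stranded mRNA kit. Per the submitters' processing notes, the tools named are bcl2fastq, RSEM 1.3.3, STAR 2.5.3a and fastp 0.21.0, with build mm10. Sequencing depth cannot be read from TPM and is unknown here, so no counting interval is given.

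From these values, log2(TPM + 1) was tested with limma 3.58.1 in R 4.3.3 (moderated variances with a trend, Benjamini-Hochberg over all tested genes, threshold 0.05), for genes at or above 1 TPM in at least 3 libraries. The 3 genotypes of a tissue were fitted together, and all 20 libraries were fitted jointly for differences between tissues. SE is that of the fit. A log2 difference understates the change of low genes because of the pseudocount of 1. The code was tested on simulated data. Gene positions and transcript lengths came from GENCODE M21 (GRCm38), matched by symbol, and promoter windows from RefSeq (GRCm38.p6).

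Every member was named. Full values were given for Slc1a2, Slc1a3, Aqp4, Gfap, Aldh1l1, Gja1, Apoe and Clu, for members that passed between genotypes, and for the 4 members of smallest p in each comparison of a knockout with control. Of the tissue contrast the passing members of largest difference were named, and of the 2 related lists up to 4 passing genes per direction. The members and lists were chosen with earlier results of these data known. Alternatives were another pseudocount, 2 other filters, other models, Rn45s left out, each library left out and, added after the data were seen, removal of the length trend and of 3 hippocampus libraries. The gene of SMRT itself is not reported here.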

Additional observations from a re-analysis of the deposited data

Results flagged for a closer look

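In groups of 4 controls, a library was singled out when its gap to the nearest other library took up more of the group's whole range than Dixon's 95% critical value, which chance alone gives in about 1 of 20 groups. Of 102 control groups examined, for the 32 astrocyte genes and the other named genes in both tissues, 5 had such a library. Glul had 1730.35 TPM in hippocampus control 4, against 1430.56 to 1474.94 TPM in the other controls of that tissue. Agt had 87.29 TPM in hippocampus control 2, against 35.81 to 44.16 TPM in the others. Fam107a had 254.95 TPM in amygdala control 3, against 305.5 to 309.94 TPM in the others. Ncor1 had 71.28 TPM in amygdala control 1, against 117.39 to 126.54 TPM in the others. Cd109, a gene of the reactive list, had 3.74 TPM in amygdala control 1, against 0.68 to 1.05 TPM in the others.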

How the results depend on the processing

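The 1 member called in amygdala NCoR1-KO against control, Slc1a2, was not called (0 members) with no filter on low values (limma adjusted p = 0.0733), without a variance trend (0.0598), with the 2 groups fitted alone (0.1002) or with the length trend removed, and leaving out 1 library gave 0 to 2 members. The 3 members called between NCoR1-KO and SMRT-KO amygdala became 1 without a variance trend and 1 with the length trend removed, and 1 to 6 when 1 library was left out. The 5 called between control tissues became 10 when the 3 hippocampus libraries were left out, and 4 to 11 when 1 library was left out. For these tissue counts the share of all tested genes called is not given here, so they are not read as a result about the members. The cause was not tested. In the other 6 comparisons 0 members were called under every alternative run. Over all genes, the 60 calls of amygdala NCoR1-KO became 16 with no filter, 17 without a variance trend, 4 with 2 groups alone, 22 with the length trend removed and 0 to 126 when 1 library was left out. The 16 of amygdala SMRT-KO became 2, 3 and 2 in the first 3 of these settings, 5 with Rn45s left out, 143 with a mean of at least 5 TPM, and 0 to 697 when 1 library was left out. The share of a library's TPM that Rn45s takes is not given here. Of 646 values recomputed for named genes, 572 kept direction and side of the threshold, 73 lost the threshold, 1 gained it (Slc4a4 in amygdala NCoR1-KO against control, without control 4, adjusted p = 0.0499 by limma) and 0 changed direction. Many of these values are of genes that did not pass in the main fit, which could not lose the threshold. Named genes were also picked for small p, so a change of direction was unlikely from the start. For calls between genotypes, losses over 10 omissions ranged from 0 (Slc1a2 between the amygdala knockouts) to 8 (Kcnj16). Slc1a2 in amygdala NCoR1-KO against control had 6.

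The labels do not say that a replicate number marks a shared animal. The deviations of same-numbered libraries from their group means correlated above 0 in 9 of 10 pairs between tissues and above 0.1 in 6 (NCoR1-KO in 3 of 3, from 0.11 to 0.51), and above 0.1 in 2 of 9 pairs within each tissue, so not every pair deviated together. Within a tissue the replicate block joined same-numbered libraries of different genotypes. Such libraries cannot come from 1 animal, so this block cannot show whether a number marks a shared animal. With it, 0 members were called in amygdala NCoR1-KO against control (Slc1a2 -0.39, limma adjusted p = 0.0943). All-gene calls were 41 for amygdala NCoR1-KO, 4 for amygdala SMRT-KO against control and 854 between the knockouts, against 1679 without it. Between tissues the block joined libraries of the same genotype and number. With that block 10 members were called between control tissues, and the share of all tested genes is not given here.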
